A study of Mus musculus with 4 samples.

Results

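Interferon-stimulated and antigen presentation genes were read in 4 RNA-seq libraries of mouse spermatogonial stem cells grown in culture (SSCs, the germline stem cells that maintain spermatogenesis). The set holds 34 genes, found by exact symbol in the deposited FPKM table of 37653 genes and joined by gene identifier to the count table of 55335 genes, and every one of the 34 was found. By role they are 7 sensors, regulators and transcription factors, 20 antiviral effectors, 6 genes of MHC class I antigen presentation and 1 chemokine. The comparison was between cells labelled Tex11PM/Y and wild-type (WT) cells, with 2 libraries each. Tex11 lies on the X chromosome and promotes crossing over between chromosomes in meiosis; what PM stands for is not given in the labels. All cells came from mice of postnatal day 10 of the strain written C57/BL6*DBA2, were grown in culture with passages and were collected on a cell sorter. No library was labelled as treated with interferon or infected. The labels do not say whether the libraries of a genotype came from separate animals or cultures, so p-values measure the spread between these samples, which may be technical. The tables give the pair of Tex11PM/Y columns a single shared name, so these are called library A and library B here.

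Interferons are secreted signals that bind receptors on the cell surface and act through the kinases JAK1 and TYK2. Transcription factors that include STAT2 and IRF9 then bind a DNA element rich in GAAA repeats, the interferon-stimulated response element, before genes that block viruses or display antigens. MHC class I molecules, made of a heavy chain and beta-2-microglobulin, carry peptides cut by the proteasome and pumped by the TAP transporter to the cell surface. Mouse SSCs have been described as lacking MHC class I at the surface, and the testis is known as a site of immune privilege.

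Total counts were 19306140 in library A and 19804951 in library B of Tex11PM/Y cells, and 19047148 and 19396809 in WT replicates 1 and 2. Levels are given in CPM (counts scaled to library size with TMM, edgeR's correction for composition), and a gene with no count in a library could have had up to 3 counts, or 0.149 to 0.169 CPM, by counting error alone. Tex11 itself had 22.7 and 9.32 CPM in Tex11PM/Y libraries A and B, against 66.4 and 126 CPM in WT replicates 1 and 2, so both Tex11PM/Y libraries lay below both WT libraries. Its log2 fold change was -2.59 ± 0.54 (SE), which missed the threshold of 0.05 once adjusted over every gene tested (edgeR's quasi-likelihood test with Benjamini-Hochberg adjustment, adjusted p = 0.884; DESeq2 adjusted p = 0.039). Germ cell and SSC genes were present throughout: their 14-gene list summed to 4050 and 3112 CPM in Tex11PM/Y libraries A and B, and to 2873 and 3104 CPM in WT replicates 1 and 2, with Dazl and Ret its most abundant members. Dazl had 1194 and 810 CPM in Tex11PM/Y libraries A and B, and 552 and 876 CPM in WT replicates 1 and 2, and Ret had 498 and 449 CPM in Tex11PM/Y, and 649 and 428 CPM in WT. The libraries differed widely in genes of other cells. A list of 15 fibroblast genes summed to 553 and 5959 CPM in Tex11PM/Y libraries A and B, and to 16705 and 4679 CPM in WT replicates 1 and 2. The 15 macrophage and leukocyte genes summed to 31.98 and 1454 CPM in Tex11PM/Y libraries A and B, and to 800.3 and 622 CPM in WT replicates 1 and 2. All 30 genes of these lists were lowest in library A, and none was at 0 counts in any library. The most abundant were Col1a1, with 102 and 1531 CPM in Tex11PM/Y, and 4710 and 995 CPM in WT, and Fn1, with 248 and 1121 CPM in Tex11PM/Y, and 3108 and 1103 CPM in WT. Lyz2 had 13.1 and 1052 CPM in Tex11PM/Y, and 529.5 and 417 CPM in WT, and Laptm5 had 1.01 and 55.5 CPM in Tex11PM/Y, and 64.9 and 28.4 CPM in WT. Sertoli, Leydig, endothelial and lymphocyte lists each summed to at most 47.0 CPM in every library, and the myoid list to 7.50 and 32.0 CPM in Tex11PM/Y, and 195 and 34.6 CPM in WT.

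The stretches before the start sites of 8 members are shown because they hold letters of the response element's form and stand before genes that ran from near the detection floor to among the most abundant of the set. Each is read on the strand of its gene, ends at the base before the RefSeq start or before the first base that the count table places in the gene, and comes from RefSeq on GRCm38.p6. Capitals mark the searched motif, GAAA, any 2 bases and GAAA again, read on either strand (TTTC, any 2 bases and TTTC on the other), with overlapping matches run together.
Isg15, chr4:156200819-156200968, minus strand: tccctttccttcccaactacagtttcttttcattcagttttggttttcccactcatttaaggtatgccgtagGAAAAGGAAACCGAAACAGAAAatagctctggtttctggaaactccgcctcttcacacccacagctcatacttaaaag
Ifit1, chr19:34640739-34640870, plus strand: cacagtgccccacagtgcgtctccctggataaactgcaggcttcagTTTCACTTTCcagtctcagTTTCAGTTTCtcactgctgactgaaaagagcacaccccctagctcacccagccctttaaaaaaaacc
Ifit3, chr19:34583379-34583528, plus strand: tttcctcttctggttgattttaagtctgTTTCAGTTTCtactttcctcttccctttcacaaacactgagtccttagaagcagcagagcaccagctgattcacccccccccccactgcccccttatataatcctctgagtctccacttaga
Rsad2, chr12:26456453-26456602, minus strand: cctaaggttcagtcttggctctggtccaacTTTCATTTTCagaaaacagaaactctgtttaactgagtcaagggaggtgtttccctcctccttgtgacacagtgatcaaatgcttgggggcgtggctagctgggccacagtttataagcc
Oas1a, chr5:120907526-120907675, minus strand: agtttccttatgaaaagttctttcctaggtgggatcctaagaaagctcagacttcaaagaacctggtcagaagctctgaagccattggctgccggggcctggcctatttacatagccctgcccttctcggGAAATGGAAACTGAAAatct
Gbp3, chr3:142559894-142560043, plus strand: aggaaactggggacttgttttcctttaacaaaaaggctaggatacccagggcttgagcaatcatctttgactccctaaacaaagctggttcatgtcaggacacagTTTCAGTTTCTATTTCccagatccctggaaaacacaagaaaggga
Bst2, chr8:71537473-71537622, minus strand: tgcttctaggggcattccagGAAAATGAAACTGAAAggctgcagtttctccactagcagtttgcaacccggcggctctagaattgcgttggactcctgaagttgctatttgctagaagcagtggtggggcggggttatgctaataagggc
B2m, chr2:122147537-122147685, plus strand: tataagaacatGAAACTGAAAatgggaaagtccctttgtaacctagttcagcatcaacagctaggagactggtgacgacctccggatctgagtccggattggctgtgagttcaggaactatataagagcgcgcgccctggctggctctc

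In the Isg15 stretch 3 matches ran together over 22 bases, and in Oas1a, Gbp3 and Bst2 a pair ran together over 16 bases. The nearest match began 14 bases before the RefSeq start in Oas1a, 39 in Gbp3, 66 in Isg15 and 85 in Ifit1. This distance was 120 bases in Rsad2, 122 in Ifit3, 124 in Bst2 and 139 in B2m. The printed stretch ends 18 bases short of the RefSeq start in Ifit1 and 1 base short in B2m. Over the 250 bases before each start, 25 members were in the RefSeq promoter table and 11 of them (44%) held the motif, against 936 of all 27025 genes in the table (3.46%), and 2.98% of all 32851 windows. By role they were 8 of 14 antiviral effectors, 1 of 6 MHC class I genes (B2m), 1 of 4 sensors and regulators (Stat2), and the chemokine gene Cxcl10. The other antiviral effector with a match was Gbp2. The palindrome TTCNNNGAA, a form of the interferon-gamma activation site, was held by 4 of the 25 (Oas1a, Bst2, Psmb8 and Ifit2, 16%), against 8.13% of genes in the table. In Bst2 it overlapped the GAAA match. Outside the table were Dhx58, Zbp1, Usp18, Mx1, Mx2, Rtp4, Parp14, Ifi27 and Ifi27l2a. A match describes letters only, and the window before a start with no match says nothing of the factors.

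The set spanned a wide range of levels, with the MHC class I heavy chains and B2m near the top and the Ifit genes near the bottom. Per length, the highest mean over the 4 libraries was that of H2-D1, a classical MHC class I heavy chain, at 121 FPKM (fragments scaled to transcript length and library size). The antiviral effector Bst2 followed with 62.8 FPKM, then B2m with 61.1, H2-K1 with 53.3, Ifi27 with 39.9 and Ifitm3 with 37.4 FPKM. In contrast, Ifit1, Ifit2 and Ifit3, which bind viral RNA or its complexes and are strongly induced by interferon, had mean levels of 0.144, 0.306 and 0.166 FPKM. Among the genes whose stretches are printed above, mean levels ran from 0.144 FPKM in Ifit1 to 62.8 FPKM in Bst2. A mean of at least 5 CPM was reached by 17 members, and the other 17 lay below it.

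**Figure D1:**
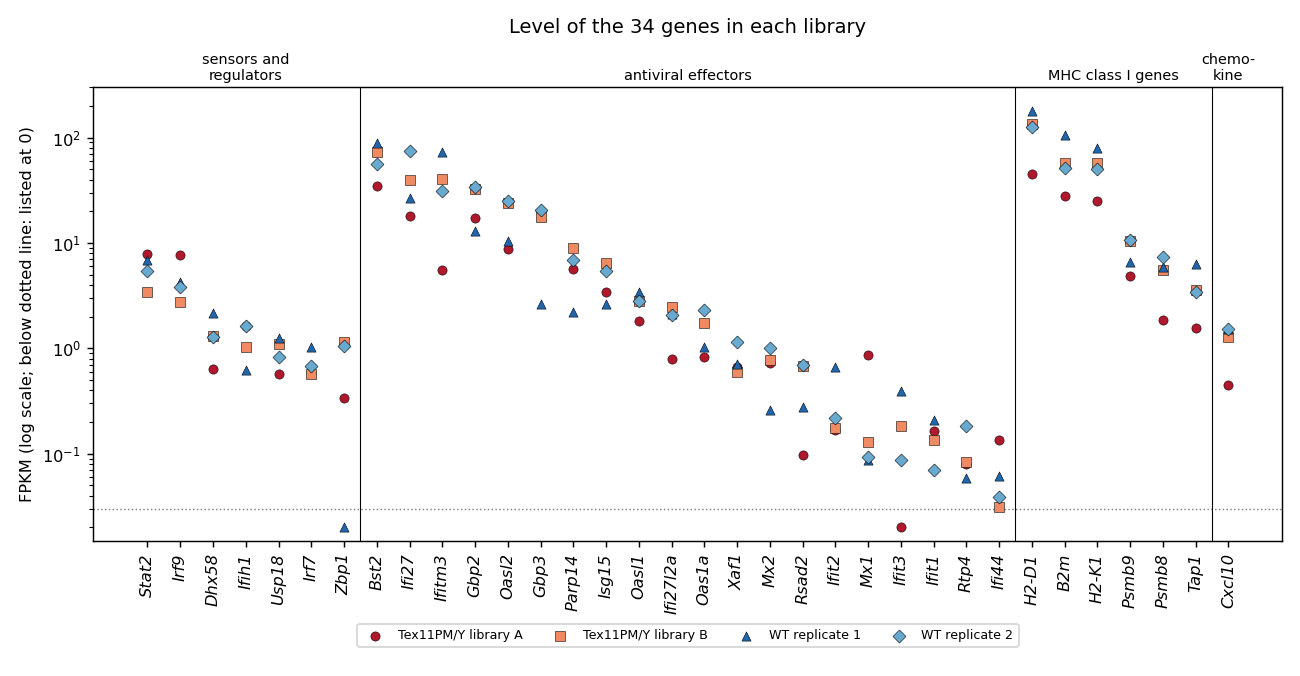
FPKM of each of the 34 genes (log axis) in Tex11PM/Y libraries A and B and WT replicates 1 and 2, grouped by role and ordered by mean level; points below the dotted line are listed at 0. H2-D1, B2m, H2-K1 and Bst2 lie near the top, and Ifit1, Ifit3, Rtp4 and Ifi44 near the bottom.

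No genotype difference passed the test in any member. After the filter on low counts 31 of the 34 were tested, and Ifit3, Ifi44 and Rtp4 were not. At an edgeR adjusted p under 0.05, 0 of the 31 were called, beside 0 of all 17262 genes tested (0%). At an unadjusted p under 0.05 there was 1 of 31, against 2.7% of all genes tested, and DESeq2 and limma called 0 members. That member was Mx1, on the higher side, where 0.991% of all genes tested lay, and 0 lay on the lower side, against 1.71%. Fitted log2 fold changes (Tex11PM/Y over WT) were below 0 in 21 members and above 0 in 10, where 49% of all genes tested were below 0 and 51% above. Their median was -0.42, against 0.01 over all genes tested. By CPM the 2 genotypes did not overlap in 8 of 31 members (25.8%), against 32.4% of all genes. In 7 of these Tex11PM/Y was below WT (22.6%, against 16.3% of all genes): Dhx58, Irf7, Oasl1, Ifit2, Ifi27l2a, Psmb8 and Cxcl10. In 1, Mx1, it was above (3.23%, against 16.1%). By FPKM the genotypes did overlap in Dhx58, Oasl1 and Ifi27l2a, where library B had 1.296, 2.813 and 2.48 FPKM. WT replicate 2 had 1.284, 2.807 and 2.09 FPKM in these genes. The share over all genes was not computed by FPKM.

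**Figure D2:**
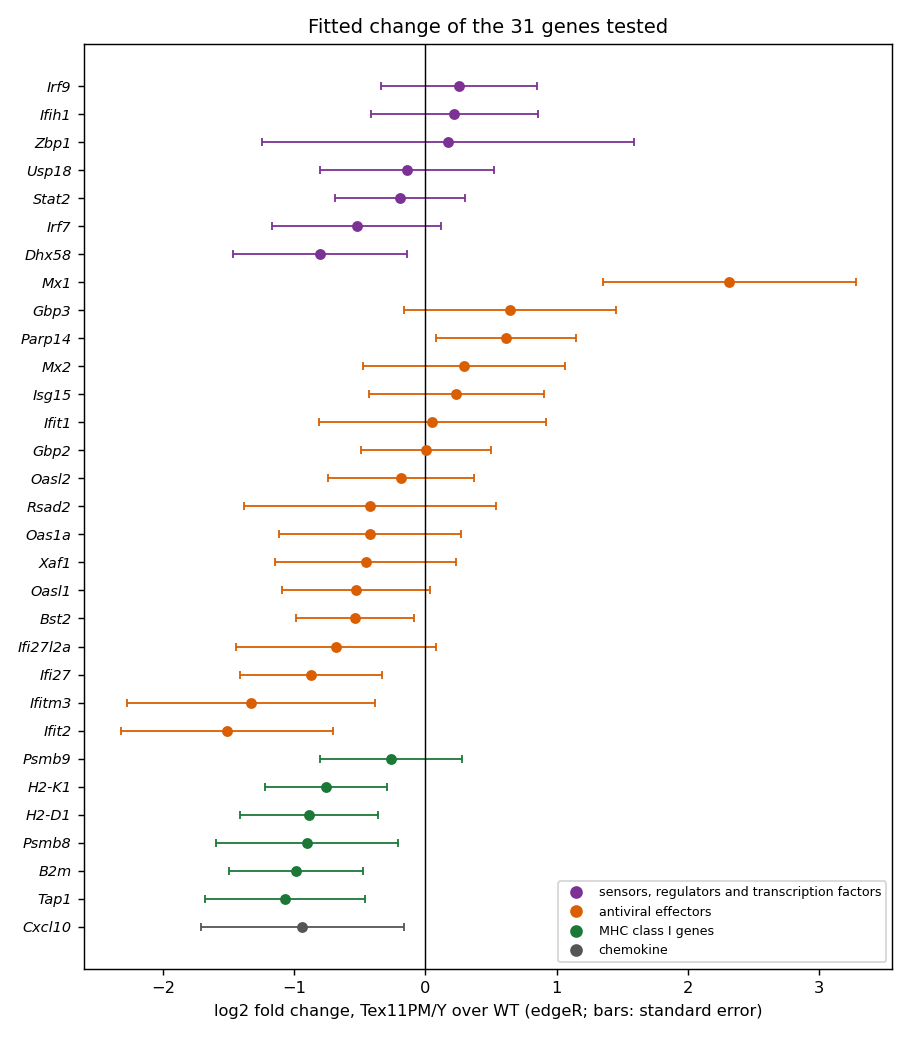
Log2 fold change of Tex11PM/Y over WT with its standard error for the 31 genes tested (edgeR, 2 libraries each), coloured by role. All 6 MHC class I genes lie below 0, from -1.07 to -0.27, while the antiviral effectors lie on both sides, from -1.51 to 2.32.

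Fitted changes lay on both sides of 0 among antiviral effectors and below 0 in every MHC class I gene. Of 17 antiviral effectors tested, 7 were fitted higher and 10 lower, with a median log2 fold change of -0.42. The 6 MHC class I genes had a median of -0.89, and without library A or without WT replicate 2 Psmb9 was fitted higher. The antiviral median was 0.10 without WT replicate 2, -0.051 without library A and -0.96 without library B. The MHC class I median was -0.48 without WT replicate 1, -0.29 without library A and -1.72 without library B. The difference between these medians, antiviral minus MHC class I, was 0.47, and ranged from 0.036 to 1.25 when 1 library at a time was left out. Genes are not replicates, so no test was made of it. The 20 antiviral effectors summed to 278.5 CPM in library A and 487 CPM in library B of Tex11PM/Y cells, and to 338 and 521 CPM in WT replicates 1 and 2. The 6 MHC class I genes summed to 207 and 539 CPM in Tex11PM/Y libraries A and B, and to 842 and 510.2 CPM in WT replicates 1 and 2. For both sums library A was lowest, and the range of the Tex11PM/Y libraries overlapped that of the WT libraries. The highest library was WT replicate 2 for the antiviral effectors and WT replicate 1 for the MHC class I genes.

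Among the Tex11PM/Y libraries, the low MHC class I levels were in library A, while library B lay near WT replicate 2 in most of these genes. Library A was the lowest of the 4 libraries in all 6 of them, in 8 of 17 antiviral effectors tested and in 3 of 7 sensors and regulators, together with Cxcl10 in 18 of 31 members (58.1%), against 34.4% of all genes tested. The summed MHC class I level was 2.60-fold higher in library B than in library A, the same genotype. WT replicate 1 lay 4.07-fold and WT replicate 2 lay 2.47-fold above library A. In 7 members the order was WT replicate 1, library B, WT replicate 2, library A from high to low: H2-D1, H2-K1, B2m, Tap1, Bst2, Ifitm3 and Usp18 (22.6%, against 11.2% of all genes tested). The same order held in 14 of the 15 fibroblast genes, whose levels are given above; their part in the result was not tested. The macrophage and leukocyte list was lowest in library A too, but highest in library B. In these bulk libraries fewer cells of a type and less RNA per cell cannot be told apart.

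**Figure D3:**
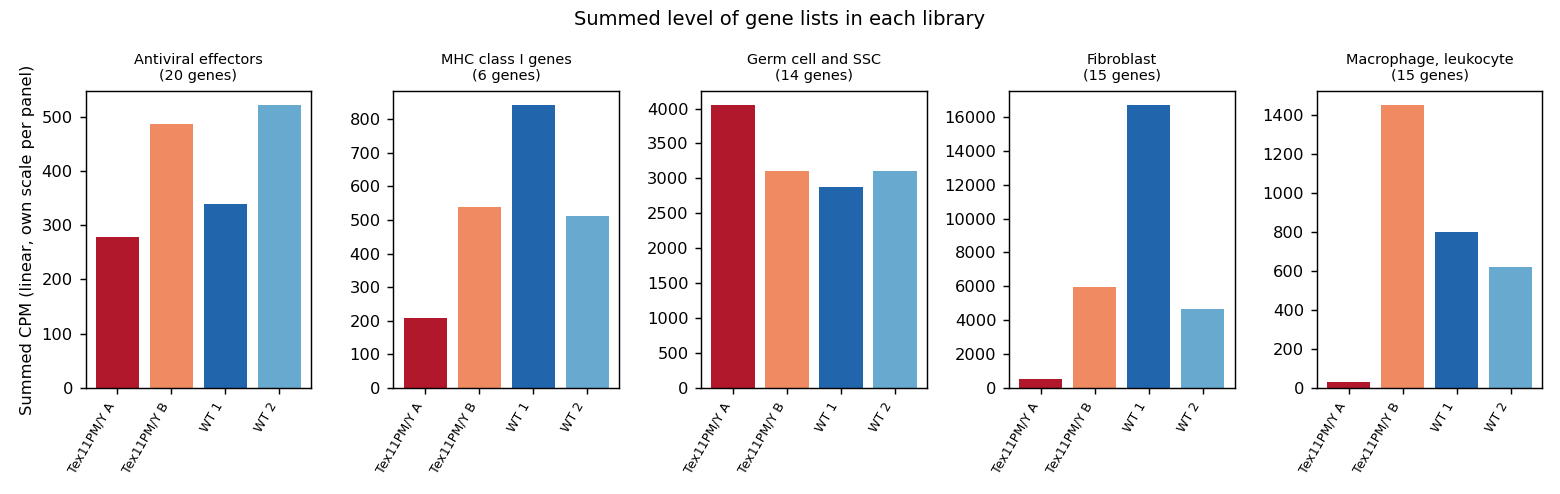
Summed CPM of 2 member groups and 3 marker lists in each library (bars start at 0; each panel has its own linear scale). Library A is lowest for the antiviral effectors, the MHC class I genes and the fibroblast and macrophage lists, and highest for the germ cell list.

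Heavy chains and beta-2-microglobulin showed the MHC class I pattern at the highest levels. H2-D1 (ENSMUSG00000073411.12, chr17:35262730-35267499 in mm10, plus strand) had 111 and 327 CPM in Tex11PM/Y libraries A and B, against 495 and 314 CPM in WT replicates 1 and 2. Group means were 219 ± 153 CPM in Tex11PM/Y and 405 ± 128 CPM in WT (SD, n = 2 each), with a log2 fold change of -0.88 ± 0.53 (SE; edgeR adjusted p = 0.884). Library A stood apart below the other libraries, and library B lay between the WT replicates. H2-K1, the other classical heavy chain of the C57BL/6 reference, had 50.8 and 115 CPM in Tex11PM/Y libraries A and B, and 178 and 103 CPM in WT replicates 1 and 2. B2m, the light chain shared by class I molecules, had 29.6 and 59.4 CPM in Tex11PM/Y libraries A and B, and 123 and 53.7 CPM in WT replicates 1 and 2. In H2-K1 and B2m library A was again lowest and library B again lay between the WT replicates, with log2 fold changes of -0.76 ± 0.47 in H2-K1 and -0.99 ± 0.51 in B2m (SE). Leaving out 1 library at a time, these ranged from -1.52 (without library B) to -0.28 (without library A) in H2-K1, and from -1.62 (without library B) to -0.28 (without WT replicate 1) in B2m. Within a library, the ratio of H2-D1 to H2-K1 in FPKM was 1.81 in library A and 2.35 in library B of Tex11PM/Y cells, and 2.26 and 2.47 in WT replicates 1 and 2, so it varied less over the libraries than either gene's level.

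Sequence copies limit how firmly heavy-chain reads can be assigned. Of the 50-base words in the longest coding transcript of H2-D1, 14.3% also occurred in other genes (7.40% in H2-Q1), and of those of H2-K1, 8.79% (6.94% in H2-D1). B2m shared none. DBA/2 mice carry other alleles at these loci than the C57BL/6J reference, and reads per allele were not analysed here.

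Peptide-processing genes followed less uniformly. Tap1, a subunit of the peptide transporter, had 5.34 and 11.96 CPM in Tex11PM/Y libraries A and B, and 24.7 and 11.6 CPM in WT replicates 1 and 2. Library A was lowest, WT replicate 1 highest, and the genotypes overlapped (log2 fold change -1.07 ± 0.61 SE, from -1.81 without library B to -0.43 without WT replicate 1). Psmb8, an immunoproteasome subunit that takes the place of Psmb5, had 2.32 and 7.92 CPM in Tex11PM/Y libraries A and B, and 9.21 and 9.96 CPM in WT replicates 1 and 2. Psmb8 is the MHC class I member whose genotypes did not overlap (log2 fold change -0.90 ± 0.70 SE, edgeR adjusted p = 0.884). Without library A the log2 fold change of Psmb8 was -0.27, and without library B it was -2.09. Psmb9, which takes the place of Psmb6, had 7.91 and 16.5 CPM in Tex11PM/Y libraries A and B, and 11.7 and 17.6 CPM in WT replicates 1 and 2. Here both genotypes held a lower and a higher library, and the log2 fold change was -0.27 ± 0.54 (SE). Tap1 and Psmb9 lie head to head on chromosome 17 and share 212 exonic bases on opposite strands in the count table, 7.18% of Tap1 and 15.7% of Psmb9. The library kit is not stated to keep strand, so reads there cannot be told apart, nor those of Psmb8 over the 11.4% of its exonic bases shared with Gm20496 on the other strand.

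The immunoproteasome subunits Psmb8 and Psmb9 stayed far below their constitutive counterparts in every library. The FPKM ratio of Psmb8 to Psmb5 was 0.026 in library A and 0.042 in library B of Tex11PM/Y cells, and 0.058 and 0.071 in WT replicates 1 and 2. For Psmb9 to Psmb6 it was 0.042 in library A and 0.056 in library B, and 0.040 and 0.067 in WT replicates 1 and 2. Psmb10, not in the set, stood higher against its counterpart Psmb7, at 0.186 in library A and 0.592 in library B, and 0.316 and 0.558 in WT replicates 1 and 2. Of the Psmb8 ratios both Tex11PM/Y values were below both WT values, while the Psmb9 and Psmb10 ratios overlapped.

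Among the abundant antiviral effectors, Ifitm3 and Bst2 ordered the libraries as the MHC class I heavy chains did. Ifitm3, a membrane protein that blocks virus entry and is also known from early mouse germ cells, had 4.48 and 32.1 CPM in Tex11PM/Y libraries A and B, against 66.5 and 25.3 CPM in WT replicates 1 and 2. This 14.8-fold span between the highest and lowest library was the widest among members with a mean of at least 5 CPM (log2 fold change -1.33 ± 0.94 SE, edgeR adjusted p = 0.884). Library A was far below the rest, and library B lay between the WT replicates. Without library B the log2 fold change was -3.40 in Ifitm3 and -1.91 in H2-D1. That fit leaves 1 Tex11PM/Y library and assumes that it varies like the rest. Without library A the log2 fold change was -0.51 in Ifitm3 and -0.30 in H2-D1. Bst2, or tetherin, which holds budding virus at the cell surface, had 34.3 and 67.1 CPM in Tex11PM/Y libraries A and B, and 93.8 and 53.5 CPM in WT replicates 1 and 2, and the genotypes overlapped (log2 fold change -0.54 ± 0.45 SE, from -1.15 without library B to -0.091 without WT replicate 1). Bst2 lies on chromosome 8, whose 921 tested genes had a median of 0.40 log2 above the mean of the other libraries in WT replicate 1. Its part in the Bst2 value was not tested.

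Gbp2, Oasl2 and Ifi27 ordered the libraries another way, with WT replicate 2 highest. Gbp2, an interferon-induced GTPase of the guanylate-binding family, had 51.2 and 93.3 CPM in Tex11PM/Y libraries A and B, and 42.3 and 102 CPM in WT replicates 1 and 2. Its log2 fold change was 0.00 within rounding, as group means were 72.2 ± 29.8 CPM in Tex11PM/Y and 72.1 ± 42.2 CPM in WT (SD, n = 2 each). Oasl2, a relative of the oligoadenylate synthetases, had 33.5 and 88.7 CPM in Tex11PM/Y libraries A and B, and 43.8 and 95.4 CPM in WT replicates 1 and 2. In Gbp2 and Oasl2 each genotype held a low and a high library, and the log2 fold change of Oasl2 was -0.19 ± 0.56 (SE). Ifi27 had 21.8 and 43.9 CPM in Tex11PM/Y libraries A and B, and 34.4 and 85.7 CPM in WT replicates 1 and 2, with library A lowest and the genotypes overlapping (log2 fold change -0.87 ± 0.54 SE). Without WT replicate 2 the log2 fold change was -0.08, and without library B it was -1.51. Ifi27 lies on chromosome 12, whose 632 tested genes had a median of 0.57 log2 above the mean of the other libraries in WT replicate 2, and the part of this in the Ifi27 value was not tested.

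Gbp3 and Parp14 were low in a single WT library. Gbp3, the neighbour of Gbp2 on chromosome 3 (chr3:142560052-142573209 in mm10, plus strand), had 62.0 and 57.1 CPM in Tex11PM/Y libraries A and B, against 9.66 and 66.5 CPM in WT replicates 1 and 2. The counts behind these values were 1232 and 1145 in Tex11PM/Y, and 172 and 1314 in WT. Both Tex11PM/Y libraries and WT replicate 2 thus lay close together and WT replicate 1 far below them (log2 fold change 0.65 ± 0.81 SE, edgeR adjusted p = 0.904). Without WT replicate 1 the log2 fold change was -0.18, and without WT replicate 2 it was 2.60. The FPKM ratio of Gbp3 to Gbp2 was 1.13 in library A and 0.541 in library B of Tex11PM/Y cells, and 0.202 and 0.595 in WT replicates 1 and 2. The 822 tested genes of chromosome 3 had a median of -0.066 log2 in WT replicate 1 relative to the other libraries. Parp14, an ADP-ribosyltransferase, had 50.7 and 77.2 CPM in Tex11PM/Y libraries A and B, and 21.2 and 62.3 CPM in WT replicates 1 and 2, again lowest in WT replicate 1 (log2 fold change 0.61 ± 0.53 SE). For Parp14 it was 0.022 without WT replicate 1 and 1.57 without WT replicate 2.

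**Figure D4:**
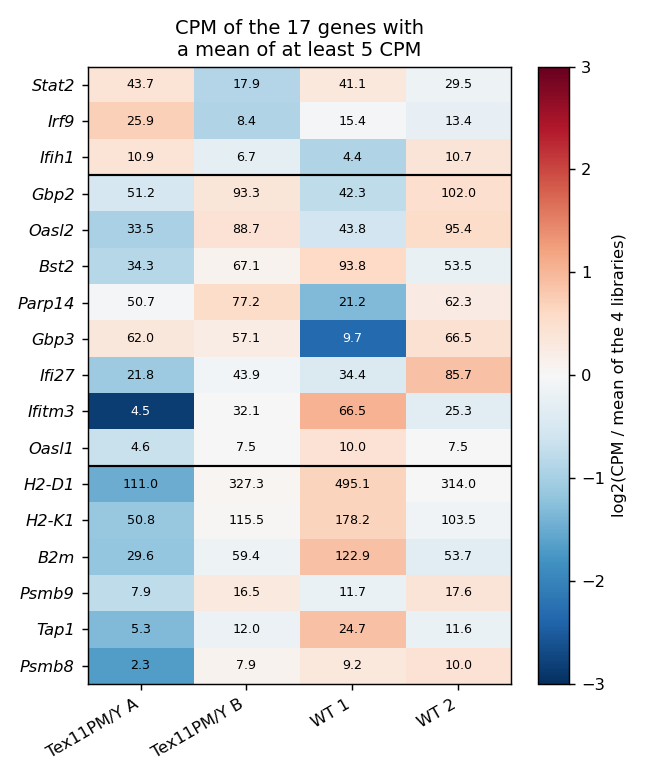
CPM (numbers) of the 17 genes with a mean of at least 5 CPM in each library, coloured by the log2 ratio to the mean of the 4 libraries; black lines part the roles. The 6 MHC class I genes are lowest in Tex11PM/Y library A, as is Ifitm3 at 4.48 CPM, and Gbp3 is lowest in WT replicate 1 at 9.66 CPM.

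The remaining antiviral effectors were low. Oasl1 had 4.63 and 7.47 CPM in Tex11PM/Y libraries A and B, and 10.0 and 7.48 CPM in WT replicates 1 and 2, so the genotypes were apart, library B and WT replicate 2 only just (log2 fold change -0.53 ± 0.57 SE). The ubiquitin-like modifier Isg15, Oas1a, Xaf1, Mx2, Rsad2, Ifit2, Ifi27l2a, Mx1, Ifit1, Ifit3, Ifi44 and Rtp4 had means over the 4 libraries between 0.204 and 3.86 CPM. Isg15 had 3.07 and 5.28 CPM in Tex11PM/Y libraries A and B, and 2.58 and 4.50 CPM in WT replicates 1 and 2. Mx1, a gene of the dynamin-like GTPase family, had 63 and 12 counts in Tex11PM/Y libraries A and B, against 7 and 7 counts in WT replicates 1 and 2. Its levels were 3.17 and 0.598 CPM in Tex11PM/Y, and 0.393 and 0.354 CPM in WT, a log2 fold change of 2.32 ± 0.96 (SE, edgeR adjusted p = 0.884). The size of that value came mostly from library A: without it the log2 fold change was 0.67. Ifit2 went the other way, with 15 and 15 counts in Tex11PM/Y libraries A and B, and 59 and 20 counts in WT replicates 1 and 2 (log2 fold change -1.51 ± 0.81 SE, and -0.45 without WT replicate 1). Ifit3 had 0 and 7 counts in Tex11PM/Y libraries A and B, and 19 and 4 in WT replicates 1 and 2, too few to pass the filter, so no genotype test was made. Ifit3 shares 51.2% of its 50-base words with Ifit3b, and Oas1a shares 57.6% with Oas1g, so their levels are uncertain.

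Of the other scarce effectors, Oas1a, Rsad2, Mx2, Xaf1 and Ifi27l2a were highest in WT replicate 2. That library was highest in 9 of the 17 antiviral effectors tested (52.9%), against 14.4% of all genes tested. Oas1a, which makes the oligoadenylates that switch on RNase L, had 2.06 and 3.79 CPM in Tex11PM/Y libraries A and B, and 2.70 and 5.16 CPM in WT replicates 1 and 2. Rsad2, or viperin, had 9 and 59 counts in Tex11PM/Y libraries A and B, and 25 and 62 counts in WT replicates 1 and 2. Both were lowest in library A, and in both the genotypes overlapped. Mx2 had 48 and 46 counts in Tex11PM/Y libraries A and B, and 16 and 58 counts in WT replicates 1 and 2, lowest in WT replicate 1 as Gbp3 was; Mx1 and Mx2 share 4.77% and 6.72% of their 50-base words. Xaf1, linked to cell death, had 44 and 30 counts in Tex11PM/Y libraries A and B, and 33 and 64 counts in WT replicates 1 and 2. Ifi27l2a, a relative of Ifi27, had 10 and 29 counts in Tex11PM/Y libraries A and B, and 26 and 33 counts in WT replicates 1 and 2. The genotypes were only just apart by CPM, with library B at 1.445 and WT replicate 1 at 1.461 CPM (log2 fold change -0.68 ± 0.76 SE). In FPKM library B, at 2.48, lay above both WT replicates, at 2.10 and 2.09. Like Ifi27, Ifi27l2a and Rsad2 lie on chromosome 12. At the bottom, Ifit1 had 10 and 8 counts in Tex11PM/Y libraries A and B, and 12 and 4 counts in WT replicates 1 and 2. Ifi44 had 10 and 3 counts in Tex11PM/Y, and 4 and 3 in WT, and Rtp4 had 3 and 3 in Tex11PM/Y, and 2 and 8 in WT. No order of libraries can be read from counts this low.

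Sensors and transcription factors had no common direction, with 3 of 7 fitted higher and 4 lower (median log2 fold change -0.14). STAT2 and IRF9 are partners in the factor that reads the response element, and both transcripts were highest in library A, for Stat2 by a small margin over WT replicate 1, and lowest in library B. Stat2 had 43.7 and 17.9 CPM in Tex11PM/Y libraries A and B, and 41.1 and 29.5 CPM in WT replicates 1 and 2. Irf9 had 25.9 and 8.42 CPM in Tex11PM/Y libraries A and B, and 15.4 and 13.4 CPM in WT replicates 1 and 2. The log2 fold change was -0.20 ± 0.50 in Stat2 and 0.26 ± 0.59 in Irf9 (SE), and the genotypes overlapped in both. Library A held the highest level of these 2 transcripts and the lowest of all 6 MHC class I genes. Over all genes tested, library A was highest in 35% and lowest in 34.4%. Ifih1, the sensor of long double-stranded RNA, had 10.9 and 6.68 CPM in Tex11PM/Y libraries A and B, and 4.38 and 10.7 CPM in WT replicates 1 and 2. Dhx58, Irf7, Usp18 and Zbp1 had means between 0.892 and 3.88 CPM. Dhx58, a regulator of RNA sensing also called LGP2, had 2.22 and 3.44 CPM in Tex11PM/Y libraries A and B, and 6.29 and 3.59 CPM in WT replicates 1 and 2, and shares 5.85% of its exonic bases with an antisense gene. Irf7, which amplifies the response, had 2.32 and 2.54 CPM in Tex11PM/Y libraries A and B, and 4.27 and 2.73 CPM in WT replicates 1 and 2. In Dhx58 and Irf7 the genotypes were apart, by a narrow gap between library B and WT replicate 2. Usp18, which removes Isg15 from proteins, had 31 and 43 counts in Tex11PM/Y libraries A and B, and 42 and 34 counts in WT replicates 1 and 2. Zbp1, a sensor of left-handed nucleic acid, had 10 and 28 counts in Tex11PM/Y libraries A and B, against 0 and 33 counts in WT replicates 1 and 2. A count of 0 allows up to 0.169 CPM in WT replicate 1, where Gbp3 and Parp14 were lowest too. That library was lowest in 7 of 31 members (22.6%), against 34.4% of all genes tested. The chemokine gene Cxcl10 had 11 and 35 counts in Tex11PM/Y libraries A and B, and 39 and 44 counts in WT replicates 1 and 2, with the genotypes apart (log2 fold change -0.94 ± 0.77 SE).

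Counts assigned to the interferon genes themselves were at or below the floor, while receptors and kinases were expressed. The 17 interferon genes looked up held 1 and 0 counts in all in Tex11PM/Y libraries A and B, and 0 and 2 counts in WT replicates 1 and 2. Of 27 receptor and signalling genes tested, 7 were fitted higher and 20 lower, 0 were called, and the median log2 fold change was -0.15. The receptor subunit Ifnar1 had 146 and 144 CPM in Tex11PM/Y libraries A and B, and 136 and 128 CPM in WT replicates 1 and 2, levels that lay close together. Among genes of that list with a mean of at least 5 CPM, the smallest p belonged to Ifngr2, a subunit of the interferon-gamma receptor, with 27.1 and 48.1 CPM in Tex11PM/Y libraries A and B, and 68.3 and 46.1 CPM in WT replicates 1 and 2. Next at that level came Ddx58, the RNA sensor RIG-I, with 5.34 and 5.53 CPM in Tex11PM/Y, and 11.3 and 6.47 CPM in WT.

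Further interferon-stimulated and antigen presentation genes outside the set had 0 calls. Of 36 interferon-stimulated genes tested, 13 were fitted higher and 23 lower, with a median log2 fold change of -0.32. Pml, the organiser of nuclear bodies, had 6.40 and 7.97 CPM in Tex11PM/Y libraries A and B, and 31.6 and 14.2 CPM in WT replicates 1 and 2, so the genotypes did not overlap (log2 fold change -1.67 ± 0.54 SE, edgeR adjusted p = 0.884). Helz2, a helicase, had 2.52 and 4.63 CPM in Tex11PM/Y, and 13.1 and 5.77 CPM in WT. Of 22 further MHC class I pathway genes, 6 were fitted higher and 16 lower, with a median of -0.66, and the genotypes did not overlap in 13 of them (59.1%, against 32.4% of all genes tested), 10 with Tex11PM/Y below WT and 3 above. Tap2, the partner of Tap1, had 6.40 and 15.5 CPM in Tex11PM/Y libraries A and B, and 42.5 and 21.9 CPM in WT replicates 1 and 2 (log2 fold change -1.56 ± 0.58 SE, edgeR adjusted p = 0.884). Erap1, which trims peptides for class I molecules, had 146 and 105 CPM in Tex11PM/Y libraries A and B, against 53.7 and 89.2 CPM in WT replicates 1 and 2 (log2 fold change 0.81 ± 0.37 SE, edgeR adjusted p = 0.884). Tap1, Tap2 and Erap1 thus did not share a direction. The constitutive proteasome subunits Psmb5, Psmb6 and Psmb7 were all fitted lower, with a median of -0.16. Psmb6 had 112 and 176 CPM in Tex11PM/Y libraries A and B, and 176 and 155 CPM in WT replicates 1 and 2, and Psmb5 had 59.1 and 111 CPM in Tex11PM/Y, and 99.1 and 90.2 CPM in WT. Of the 4 MHC class II genes tested 2 lay on each side. H2-DMa, which helps load class II peptides, had 7.96 and 7.77 CPM in Tex11PM/Y libraries A and B, and 14.6 and 10.5 CPM in WT replicates 1 and 2. Cd74, the class II invariant chain, had 3.98 and 13.2 CPM in Tex11PM/Y, and 3.37 and 12.6 CPM in WT.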

How the data were processed

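Poly(A) RNA of sorted SSCs was sequenced in 4 libraries. Tools listed in the submitters' processing notes are DESeq2, StringTie, featureCounts, STAR and fastp, and the build listed is mm10, with no version of any. Annotation release and strand setting are not given in the sources used here. Per the file headers, the authors deposited a table of whole read counts per gene in featureCounts layout, and tables of FPKM and TPM for 37653 genes. The count test was edgeR 4.0.16 under R 4.3.3 (counts filtered by filterByExpr, TMM scaling, robust quasi-likelihood fit on genotype). Benjamini-Hochberg adjustment ran over 17262 genes, with a threshold of 0.05. The fit was run on simulated counts only at a spread below the common coefficient of variation of 43.4% fitted in these data. That run thus does not show what the fit can recover here. Standard errors are the fold change over the root of F. FPKM was used to compare genes and CPM to compare libraries; log2 CPM used a prior count of 2. Alternatives were DESeq2 1.42.0 on all genes with at least 1 count, its size factors, library size alone, other count filters, limma 3.58.1 on log2(FPKM + 1), log2(FPKM + 0.1) and log2(TPM + 1), and leaving out each library. Shared 50-base words were counted in GENCODE M21 transcripts.

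The members, lists and tests were chosen with earlier results of these data known. Values per library are given for members with a mean of at least 5 CPM and, outside the set, for the 2 genes of each pathway list with the smallest p at that level and the 2 most abundant of the germ cell, fibroblast and macrophage lists. Ifnar1, Psmb10 and Psmb7, and the low members given by library, were picked once their values had been seen. Counts over lists include 1 gene that is not reported here.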

Additional observations from a re-analysis of the deposited data

How the results depend on the processing

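No paired analysis was possible because both Tex11PM/Y columns carry the same replicate number and cannot be tied to a WT replicate. Under the 8 settings that kept all libraries 0 members were called. The signs of the members fitted did not change except for Gbp2, with -0.014 under DESeq2, -0.00062 with DESeq2 size factors and -0.022 with no count filter. The filter of at least 1 CPM in 2 libraries left out Ifit1 and Mx1, so neither had a sign there. Over all genes DESeq2 called 1 gene higher (Pkd2l1) and 1 lower (Tex11), and with no count filter edgeR called 16 higher and 34 lower. With 1 library left out, 0 to 74 genes were called higher and 0 to 444 lower, the most without Tex11PM/Y library B, a fit in which the lone library is assumed to vary like the other group. Among members that gave 0 to 2 calls, 0 to 1 each in the antiviral and MHC class I groups (Ifitm3 and H2-D1).

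Leaving out 1 library at a time, 17 of the 31 members tested kept their sign and 14 did not. The median log2 fold change ranged from -0.96 to -0.17 over all members, from -0.96 to 0.10 over antiviral effectors and from -1.72 to -0.29 over MHC class I genes. Members fitted higher numbered 6 to 13, antiviral effectors fitted higher 3 to 9 and MHC class I genes fitted higher 0 to 1 (Psmb9). Sign changes came within these ranges: Gbp2 from -0.54 to 0.76, Gbp3 from -0.18 to 2.60, Ifih1 from -0.31 to 0.98, Ifit1 from -0.60 to 1.11, Irf9 from -0.77 to 0.80, Isg15 from -0.25 to 0.68, Mx2 from -0.34 to 1.36, Oas1a from -0.97 to 0.10, Oasl2 from -1.10 to 0.47, Psmb9 from -0.94 to 0.17, Rsad2 from -2.35 to 0.37, Stat2 from -0.97 to 0.26, Usp18 from -0.43 to 0.089 and Zbp1 from -0.82 to 7.20, the last against a WT library at 0 counts, where the value depends on the prior count. The cause of these changes was not tested.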

Other observations

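The guanylate-binding genes that lie beside Gbp3 on chromosome 3 were chosen after their values were seen. Gbp7, which shares 4.79% of the 50-base words of Gbp3, had 47 and 81 counts in Tex11PM/Y libraries A and B, and 63 and 134 counts in WT replicates 1 and 2. Gbp2b had 4 and 9 counts in Tex11PM/Y, and 4 and 8 in WT, and Gbp5 had 0 and 4 counts in Tex11PM/Y, and 3 and 10 in WT. No order of libraries can be read from the counts of Gbp2b and Gbp5.

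The interferon-induced transmembrane genes next to Ifitm3 were also chosen after their values were seen. Ifitm2 had 1.76 and 29.4 CPM in Tex11PM/Y libraries A and B, and 41.6 and 23.1 CPM in WT replicates 1 and 2, the same order of libraries as Ifitm3. Ifitm1 had 8.61 and 23.97 CPM in Tex11PM/Y libraries A and B, and 9.55 and 17.9 CPM in WT replicates 1 and 2, and there WT replicate 1 lay near library A. Of the 50-base words of Ifitm3, 10.0% occur in other genes.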
